A study of Homo sapiens with 12 samples.

Results

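The IFIT and IFITM families are interferon-induced antiviral genes, and 8 of their members were followed here across 4 lines of MIA PaCa-2, a human pancreatic ductal adenocarcinoma cell line. They were taken from the 63086 genes of the expression table by symbol: IFIT1, IFIT2, IFIT3, IFIT5, IFITM1, IFITM2, IFITM3 and IFITM10. RNA was sequenced from 12 libraries, 3 labelled biological replicates of each line. WT was the unmodified line, CRISPR Control was derived from it with a silent point mutation and an unaltered TIMP-1 protein sequence, and TIMP1 KO 1 and TIMP1 KO 2 were knockout lines edited in exon 4 of TIMP1, which encodes a secreted inhibitor of metalloproteinases. All lines were grown in serum-containing medium, and no interferon treatment is labelled in any of them. Each knockout is a single edited line, so what belongs to the editing of TIMP1 and what belongs to the line cannot be told apart within it. CRISPR Control is a single line as well, so its differences from WT cannot be extended to other control lines. The knockout lines are jointly called deficient below and the other lines competent. The study addressed how TIMP-1 shapes the immune-related programme of these cancer cells. The members were selected on measured values of these libraries, since interferon-response genes were already known to differ between the knockout lines and the others. Their values in those comparisons, and between the knockout lines, are therefore given as a description without p-values. For CRISPR Control against WT no result of these genes was known when they were chosen, and that comparison is given with p-values. The known results did use the same WT and CRISPR Control libraries. The study's list of TIMP-1-dependent genes also left out genes that differed between these 2 lines. The p-values are therefore not fully independent of the choice.

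Interferons bind receptors at the cell surface, JAK kinases phosphorylate STAT proteins, and a complex that contains STAT2 and IRF9 binds interferon-stimulated response elements in the promoters of genes such as these. IFIT proteins are cytosolic and bind viral RNA: IFIT1 recognises RNA whose cap lacks ribose methylation, IFIT3 stabilises IFIT1 in a complex, IFIT2 binds AU-rich RNA and has been linked to cell death, and IFIT5 binds RNA with a free triphosphate end. IFITM proteins sit in membranes and hinder virus fusion, IFITM1 mostly at the cell surface and IFITM2 and IFITM3 in endosomes. IFITM10 shares the fold of the family but is not a classical interferon target.

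The 4 IFIT members lie together on chromosome 10 within 138 kb (GRCh38 chr10:89283694-89421605), all on the plus strand in the order IFIT2, IFIT3, IFIT1, IFIT5. IFITM2 and IFITM1, on the plus strand, and IFITM3, on the minus strand, lie within 25.8 kb on chromosome 11 (chr11:303655-329475). IFITM10 lies apart from them on the minus strand of the same chromosome (chr11:1732406-1750595). In the table they carry the identifiers ENSG00000185745.10 (IFIT1), ENSG00000119922.11 (IFIT2), ENSG00000119917.15 (IFIT3), ENSG00000152778.10 (IFIT5), ENSG00000185885.17 (IFITM1), ENSG00000185201.18 (IFITM2), ENSG00000142089.17 (IFITM3) and ENSG00000244242.2 (IFITM10). All 8 are annotated as protein coding in GENCODE release 44, and the canonical transcript has 2 exons in each member except IFITM10, which has 3.

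Promoter windows, from 250 bases before to 50 after an annotated start, were at hand from RefSeq (GRCh38.p14) for 5 of the 8 members: IFIT1, IFIT3 with 2 starts, IFIT5, IFITM1 and IFITM3. The stretches printed here carry GAAA followed, after any 2 bases, by GAAA, the core of the interferon-stimulated response element, and are shown because they are the feature these promoters share. Capitals mark each match on either strand, so that matches on the opposite strand begin and end in TTTC, and each stretch is written on the strand of its gene.
IFIT3, upstream start, chr10:89327831-89327894, plus strand: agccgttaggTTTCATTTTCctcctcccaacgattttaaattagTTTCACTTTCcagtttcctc
IFIT3, downstream start, chr10:89332425-89332497, plus strand: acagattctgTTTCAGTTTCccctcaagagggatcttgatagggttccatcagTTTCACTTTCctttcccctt
IFIT1, chr10:89392497-89392539, plus strand: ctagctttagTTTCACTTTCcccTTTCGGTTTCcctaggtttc
IFIT5, chr10:89414513-89414573, plus strand: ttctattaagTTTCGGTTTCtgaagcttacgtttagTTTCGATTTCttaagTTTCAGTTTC
IFITM1, chr11:313990-314043, plus strand: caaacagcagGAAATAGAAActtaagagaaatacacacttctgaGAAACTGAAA
IFITM3, chr11:320876-320922, minus strand: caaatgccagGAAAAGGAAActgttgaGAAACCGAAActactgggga

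Each of these windows held at least 2 matches. Over all 35116 promoter windows of the table, 3.57% held a match and 0.259% held 2 or more. IFIT5 had 3 matches, spread from 45 bases before the start to 6 bases after it, and the other windows had 2. The matches lay on the strand opposite to the gene in IFIT1, IFIT3 and IFIT5 and on the gene's own strand in IFITM1 and IFITM3. TTC followed, after any 3 bases, by GAA, the letters of the gamma-activated site, stood in 7.66% of all windows and among the members in the IFITM1 window only, at 12 to 4 bases before the start. IFIT1B and IFITM5, family genes outside the chosen 8, had windows without the response element letters.

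Levels are normalised counts, that is, read counts divided by a size factor per library, and depth ran from 26908701 to 36093563 reads in genes. RNA of the targeted gene, TIMP1, averaged 1599.6 in TIMP1 KO 1 and 1161 in TIMP1 KO 2 beside 3553 in WT and 2690.4 in CRISPR Control, so the transcript was lower in every knockout library than in every competent one but remained present. The 5 epithelial markers KRT8, KRT18, KRT19, EPCAM and CDH1 were detected in every line, with a summed level of 56497 to 72652 in CRISPR Control and 174138 to 223400 in the other lines. CDH1, the epithelial cadherin, averaged 1189 in WT, 1424 in CRISPR Control, 128 in TIMP1 KO 1 and 84.9 in TIMP1 KO 2. The other epithelial markers did not fall in both knockout lines. In the same order of lines KRT19 averaged 15707, 4583, 24591 and 52497, and EPCAM 1890, 1875, 2036 and 1299. KRT8 averaged 129995, 39963, 135667 and 96385, and KRT18 54161, 16912, 55794 and 35097. Of the mesenchymal markers, VIM averaged 70742, 58625, 93176 and 72716, ZEB1 1226, 954, 1288 and 1258, and FN1 105, 826, 51.2 and 90.6. The 7 leukocyte markers summed to 47.3 to 64.8 in WT, 54.4 to 58.1 in CRISPR Control, 86.6 to 102 in TIMP1 KO 1 and 175 to 193 in TIMP1 KO 2. Most of that was CD14, at 36.2, 36.5, 83.0 and 161, while CD3E and CLEC4C, which define T cells and plasmacytoid dendritic cells, averaged at most 1.19 in any line. The part of these marker differences in the values below was not tested. As in any bulk RNA, fewer cells expressing a gene and less RNA of it per cell cannot be told apart.

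IFIT1, the sensor of incompletely capped RNA, had 843, 874 and 846 normalised counts in the WT libraries and 331, 266 and 287 in CRISPR Control. It had 1049, 1352 and 1007 in TIMP1 KO 1 and 9168, 8801 and 8448 in TIMP1 KO 2. The lines therefore stood in the order CRISPR Control, WT, TIMP1 KO 1, TIMP1 KO 2, and no library of one line reached the range of another. IFIT1 in TIMP1 KO 2 was 10.3-fold its WT level and 7.75-fold its level in TIMP1 KO 1.

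IFIT2, the AU-rich RNA binder, had 337, 289 and 314 in WT, 257, 251 and 185 in CRISPR Control and 347, 358 and 347 in TIMP1 KO 1. In TIMP1 KO 2 it had 2905, 2724 and 2773. TIMP1 KO 2 stood far above the other lines. TIMP1 KO 1 lay just above WT, its lowest library at 347 and the highest of WT at 337.

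IFIT3, the stabilising partner of IFIT1, had 190.2, 229 and 209 in WT and 129.6, 121 and 141 in CRISPR Control. It had 416, 458 and 370.1 in TIMP1 KO 1 and 3126, 3072 and 2857 in TIMP1 KO 2. The order of the lines was that of IFIT1 with no overlap, and the step from WT to TIMP1 KO 1, 1.98-fold, was the largest such step of the 4 IFIT members.

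IFIT5 had 656, 837 and 681 in WT, 495, 515 and 459 in CRISPR Control and 889, 927 and 887 in TIMP1 KO 1. In TIMP1 KO 2 it had 1997, 1764 and 1693, 2.51-fold the WT level. The lines again kept the same order without overlap, but over a narrower range than the other IFIT genes.

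**Figure D1:**
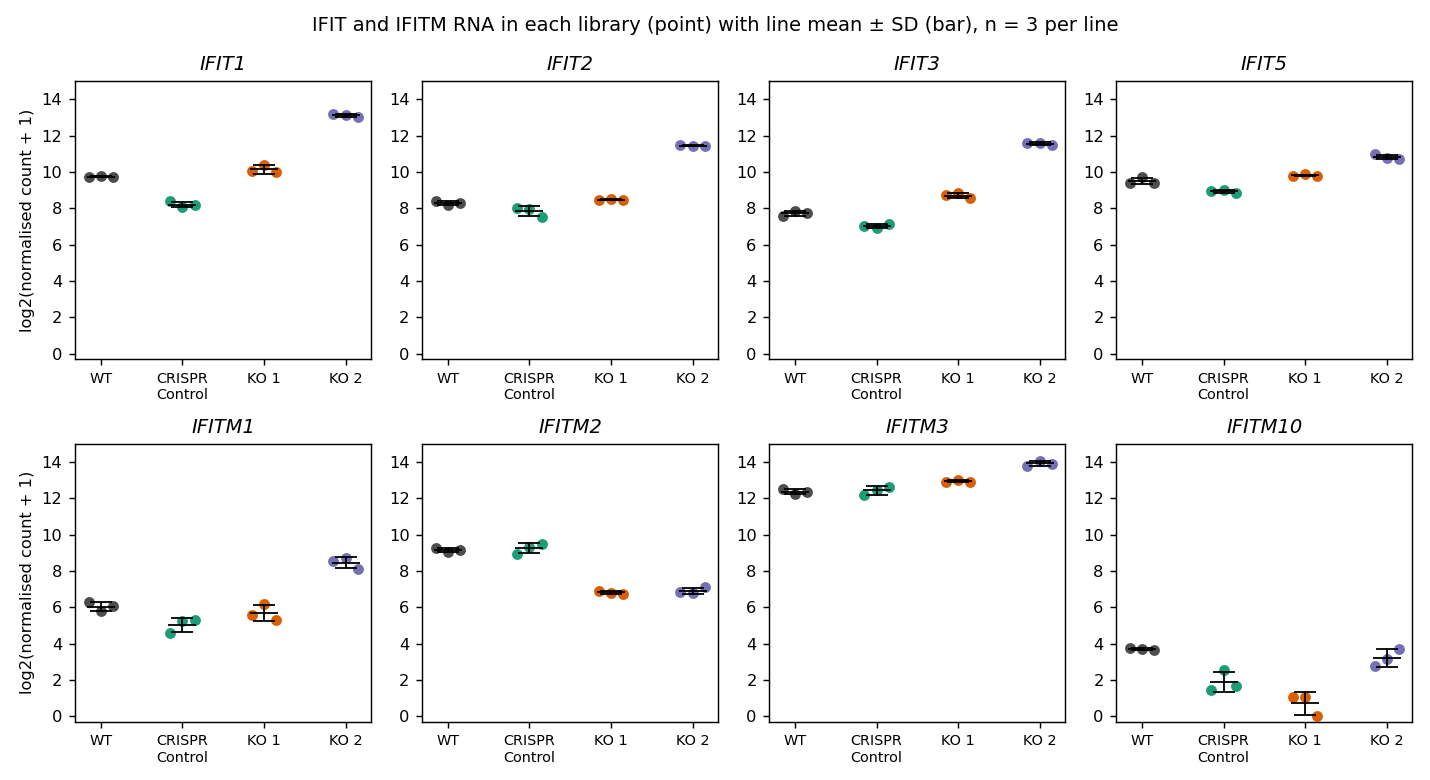
Level of each of the 8 members, as log2(normalised count + 1), in every library of the 4 lines (points), with the line mean and SD (bars, n = 3 per line). IFIT1, IFIT2, IFIT3, IFIT5, IFITM1 and IFITM3 were highest in TIMP1 KO 2, whereas IFITM2 was low in both knockout lines, at 112 and 120.1 normalised counts against 569.6 in WT.

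IFITM1, the surface member, had few reads outside TIMP1 KO 2. It had 75.8, 53.6 and 66.7 normalised counts in WT, 23.3, 36.8 and 38.5 in CRISPR Control, 46.5, 72.0 and 38.0 in TIMP1 KO 1 and 377, 420.0 and 273 in TIMP1 KO 2. The libraries of TIMP1 KO 1 overlapped those of both WT and CRISPR Control, and only TIMP1 KO 2 stood clear of the rest, at 5.46-fold the WT level.

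IFITM2 had 611, 530.0 and 568 in WT and 496, 626 and 715 in CRISPR Control. It had 119.9, 108 and 107 in TIMP1 KO 1 and 113, 109.6 and 137 in TIMP1 KO 2. The competent lines overlapped each other, the deficient lines overlapped each other, and every deficient library lay below every competent one. The ratio to the WT mean was 0.196 in TIMP1 KO 1 and 0.211 in TIMP1 KO 2.

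IFITM3, the endosomal member best known for restricting influenza virus, had 5789, 4848 and 5221 in WT and 4670.3, 5597 and 6390.1 in CRISPR Control. It had 7594, 8123 and 7698 in TIMP1 KO 1 and 14170.0, 16934 and 15315 in TIMP1 KO 2. WT and CRISPR Control overlapped, and both knockout lines lay above them, TIMP1 KO 1 at 1.48-fold and TIMP1 KO 2 at 2.93-fold the WT mean.

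IFITM10 was near the limit of detection, with a mean of 6.03 over all libraries, and did not reach the mean of 10 required for the fit. Its reads numbered 36 over the 3 WT libraries, 8 in CRISPR Control, 2 in TIMP1 KO 1 and 28 in TIMP1 KO 2. Relative to WT and corrected for depth, the ratio was 0.232 in CRISPR Control (95% exact counting interval 0.0930 to 0.507), 0.0572 in TIMP1 KO 1 (0.00667 to 0.222) and 0.707 in TIMP1 KO 2 (0.415 to 1.19). These intervals cover counting error only and not the spread between cultures.

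Shared sequence limits some of these values. Of the 100-base windows along the canonical transcripts, none of IFIT1, IFIT2, IFIT3 or IFIT5 occurred in another gene, but 50.1% of IFITM1 did, in IFITM3 and in the readthrough gene ENSG00000288681 that spans IFITM1 and IFITM2. The share was 2.09% for IFITM2, 8.20% for IFITM3 and 26.7% for IFITM10, the last in an overlapping protein-coding gene, ENSG00000250644. Whether the counting discarded or split such reads is not given in the sources used here, so the IFITM values, IFITM1 and IFITM10 above all, are uncertain to that extent. LIPA, a lysosomal lipase gene with 9787 normalised counts in WT, runs opposite to the IFIT cluster and shares 65 exon bases with IFIT2 and 94 with IFIT3. Without the strand setting, reads there cannot be assigned to one or the other. IFIT2 also shares 524 exon bases, 12.1% of its exon length, with AL353751.1 on the same strand. Strand cannot separate the reads of that overlap.

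CRISPR Control against WT compared the control line, whose TIMP-1 sequence is unaltered, with the unmodified line. All 4 IFIT genes and IFITM1 were lower in CRISPR Control, and IFITM2 and IFITM3 did not pass the test. IFIT1 fell most, by 1.54 on the log2 scale (SE 0.10, limma adjusted p = 3.81e-10, lower in 3 of 3 libraries), from a mean of 854 ± 16.9 (SD, n = 3) to 294 ± 33.2. IFITM1 fell by 0.99 (SE 0.25, limma adjusted p = 0.00242), IFIT3 by 0.68 (SE 0.11, limma adjusted p = 3.35e-05), IFIT5 by 0.56 (SE 0.10, limma adjusted p = 9.37e-05) and IFIT2 by 0.45 (SE 0.11, limma adjusted p = 0.00258). In each of these 5 genes all CRISPR Control libraries lay below all WT libraries, as in 27.1% of all genes tested. IFIT2 fell by 0.30 without CRISPR Control replicate 3 (limma adjusted p = 0.0149). IFITM2 differed by 0.09 (95% interval -0.19 to 0.38, limma adjusted p = 0.600) and IFITM3 by 0.06 (95% interval -0.14 to 0.27, limma adjusted p = 0.616), so a change of these 2 genes larger than those bounds was not seen. Without CRISPR Control replicate 3 both lay on the other side of 0, at -0.03 for IFITM2 and -0.04 for IFITM3, again without a call. In all, 5 of the 7 members tested were called lower and 0 higher, where 26.3% of all 15987 genes tested were called lower, 27.2% higher and 53.4% in either direction. By edgeR and by DESeq2 on the recovered reads the members called higher also numbered 0.

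The knockout lines were set against WT to describe how far the members stood from the unmodified line. In TIMP1 KO 1 the log2 fold changes were 0.40 ± 0.10 (SE) for IFIT1, 0.16 ± 0.11 for IFIT2, 0.98 ± 0.11 for IFIT3 and 0.32 ± 0.10 for IFIT5. For the IFITM genes they were -0.36 ± 0.25 for IFITM1, -2.34 ± 0.14 for IFITM2 and 0.57 ± 0.10 for IFITM3. Thus 4 of the 7 members were called higher and IFITM2 lower, beside 18.0% and 17.5% of all genes, and IFIT2 and IFITM1 were not called. Both of these uncalled values moved with single libraries. IFITM1 was at -0.61 without TIMP1 KO 1 replicate 2 and -0.16 without TIMP1 KO 1 replicate 3, and IFIT2 at 0.11 without WT replicate 2. IFIT5 in this comparison depended on single libraries: the call was lost without WT replicate 1 (log2 fold change 0.25), without WT replicate 3 (0.28) and without TIMP1 KO 1 replicate 2 (0.30).

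In TIMP1 KO 2 the differences from WT were larger for 6 members. They were 3.36 ± 0.10 for IFIT1, 3.16 ± 0.11 for IFIT2, 3.85 ± 0.11 for IFIT3 and 1.33 ± 0.10 for IFIT5, then 2.42 ± 0.25 for IFITM1, -2.24 ± 0.14 for IFITM2 and 1.55 ± 0.10 for IFITM3. That is 6 members higher and 1 lower, beside 27.1% and 27.9% of all genes. Scaling the libraries to equal totals raised the share of higher calls among all called genes from 49.3% to 60.0% in this comparison and left the member calls at 6 and 1. IFITM2 was called lower in both knockout lines against WT, as were 12.9% of all genes.

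**Figure D2:**
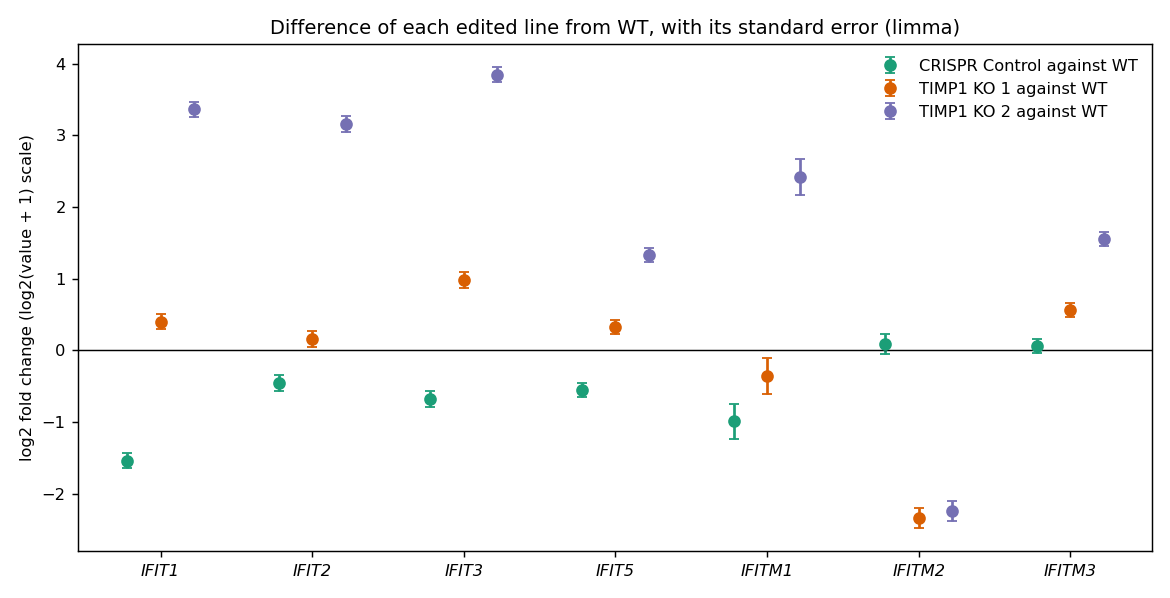
Log2 fold change of the 7 tested members in CRISPR Control, TIMP1 KO 1 and TIMP1 KO 2, each against WT, with the standard error of the limma fit (bars). IFIT1 lies at -1.54, 0.40 and 3.36, whereas IFITM2 lies at 0.09, -2.34 and -2.24.

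Between the knockout lines, TIMP1 KO 2 exceeded TIMP1 KO 1 by 2.96 for IFIT1, 2.99 for IFIT2, 2.87 for IFIT3 and 2.78 for IFITM1 on the log2 scale. The differences were 1.01 for IFIT5 and 0.98 for IFITM3. IFITM2 differed by 0.10 ± 0.14 (SE), or by -0.14 after quantile normalisation, and was not called. The counts were 6 members higher and 0 lower, beside 18.1% and 20.1% of all genes, and scaling to equal totals moved the share of higher calls among all called genes from 47.4% to 65.6% with the member counts at 6 and 0. Because CRISPR Control lay below WT for the IFIT genes, the same knockout libraries stood further from it than from WT. IFIT1 was 1.94 and 4.90 above CRISPR Control in TIMP1 KO 1 and TIMP1 KO 2, and IFIT3 was 1.66 and 4.52 above it. Against CRISPR Control 6 members were called higher and IFITM2 lower in either knockout line, beside 31.7% higher and 31.3% lower of all genes for TIMP1 KO 1 and 33.3% and 34.4% for TIMP1 KO 2. The call of IFITM1 in TIMP1 KO 1 was lost without CRISPR Control replicate 1 (log2 fold change 0.41, against 0.63 with all libraries), without TIMP1 KO 1 replicate 2 (0.38) and when genes of any mean were tested (0.63).

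The mean of the deficient lines against the mean of the competent lines gave log2 differences of 2.65 for IFIT1, 1.89 for IFIT2, 2.75 for IFIT3, 1.10 for IFIT5, 1.53 for IFITM1, -2.34 for IFITM2 and 1.03 for IFITM3. Again 6 were called higher and 1 lower, beside 32.9% and 33.0% of all genes. In 5 members every deficient library lay above every competent one, as in 12.3% of all genes, and in IFITM2 every one lay below, as in 12.4%. IFITM1 was the member whose libraries overlapped in this comparison.

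The make-up of each family was compared per kb of canonical transcript, the scale on which levels of different genes can be set side by side. IFIT1 and IFIT5 led in WT, with 35.6% ± 1.13 (SD, n = 3) and 32.1% ± 2.60 of the summed IFIT level. In CRISPR Control IFIT5 was the leading gene at 38.9% ± 1.71, with IFIT1 at 21.9% ± 1.96, while in TIMP1 KO 2 IFIT1 led at 44.6% ± 0.14 and IFIT5 was last at 9.83% ± 0.45. TIMP1 KO 1 stayed close to WT for IFIT1, 34.4% ± 2.57, and IFIT5, 29.4% ± 1.84, but IFIT3 took 22.7% ± 0.87 against 15.7% ± 0.76 in WT. The summed IFIT level was 558 ± 29.3 normalised counts per kb in WT, 313 ± 18.0 in CRISPR Control, 765 ± 68.3 in TIMP1 KO 1 and 4587 ± 198 in TIMP1 KO 2.

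IFITM3 made up most of the summed per-kb level of IFITM1, IFITM2 and IFITM3 in every line, from 92.9% in WT to 98.5% in TIMP1 KO 1. IFITM2 made up 6.09% ± 0.11 in WT and 6.23% ± 0.17 in CRISPR Control, but 0.857% ± 0.078 in TIMP1 KO 1 and 0.463% ± 0.075 in TIMP1 KO 2. The ratio of IFITM3 to IFITM2 normalised counts within a library was 9.15 to 9.47 in WT and 8.93 to 9.42 in CRISPR Control. It was 63.3 to 75.2 in TIMP1 KO 1 and 112 to 155 in TIMP1 KO 2. The level of the ratio was thus higher in both deficient lines, where IFITM2 had few reads and the ratio is less precise within a line. By level per kb, IFITM3 stood above 98.7% of tested genes in WT and 99.7% in TIMP1 KO 2. IFIT1 stood above 52.5% in WT, 35.1% in CRISPR Control, 57.2% in TIMP1 KO 1 and 93.0% in TIMP1 KO 2.

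**Figure D3:**
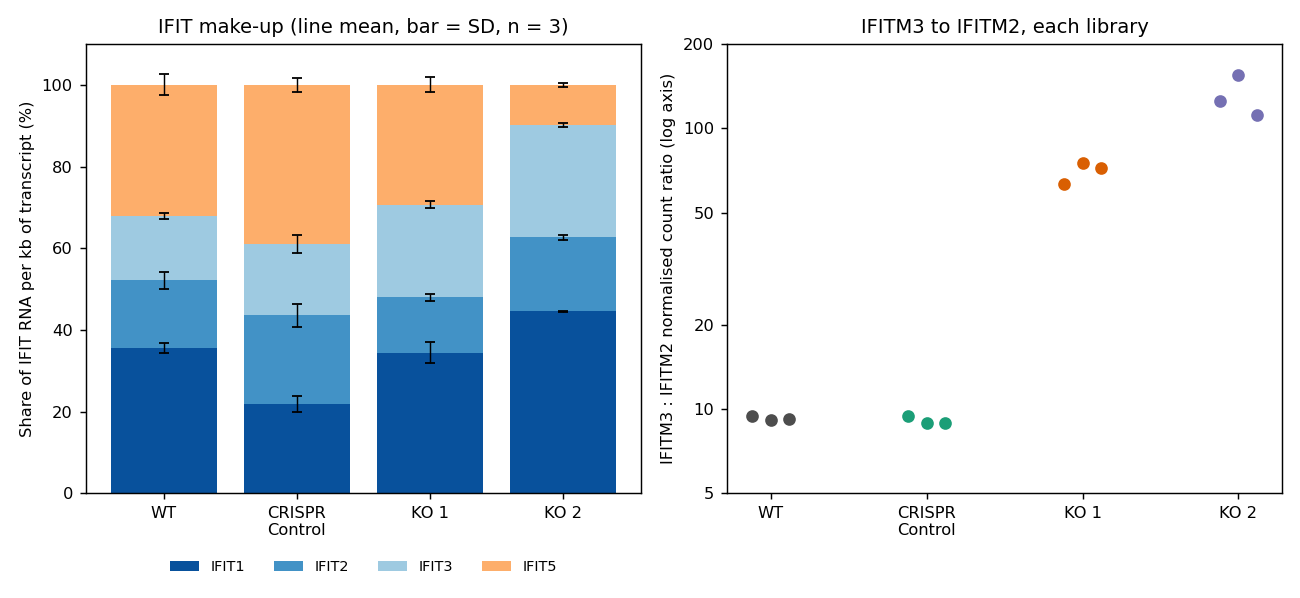
Left, share of each IFIT gene in the summed IFIT level per kb of transcript, as line means with SD (bars, n = 3). Right, ratio of IFITM3 to IFITM2 normalised counts in every library on a log axis, at 8.93 to 9.47 in the competent lines and 63.3 to 155 in the deficient lines.

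Genes near the members were taken by position, within 200 kb on either side. Of the 10 around the IFIT cluster, 4 could be tested. LIPA, which overlaps the cluster, fell by 1.59 in CRISPR Control against WT (SE 0.07, limma adjusted p = 1.04e-12), where IFIT1 fell by 1.54, but differed from WT by -0.03 in TIMP1 KO 1 and 0.13 in TIMP1 KO 2, where the IFIT genes were high. AL353751.1, a long non-coding RNA that shares 524 exon bases with IFIT2 on the same strand, averaged 41.5 in WT, 19.8 in CRISPR Control, 15.4 in TIMP1 KO 1 and 16.5 in TIMP1 KO 2, where IFIT2 had 314, 231, 351 and 2801. SLC16A12, a transporter gene, was detected chiefly in CRISPR Control, at 55.6 against 1.44 to 2.31 in the other lines, and reached the minimum through that line alone. Of these 4 neighbours 3 were called lower in CRISPR Control against WT, beside 26.3% of all genes. The 1 called higher was SLC16A12, whose direction there was fixed by the minimum, so that call is not read as a result. In TIMP1 KO 2 against WT 2 were lower and 0 higher, beside 27.9% and 27.1% of all genes.

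Around IFITM1, IFITM2 and IFITM3, 16 of 37 neighbouring genes could be tested. Against WT, 4 were called higher and 1 lower in TIMP1 KO 1, and 5 higher and 4 lower in TIMP1 KO 2. These counts lie near the shares over all genes, 18.0% higher and 17.5% lower in TIMP1 KO 1 and 27.1% and 27.9% in TIMP1 KO 2. In CRISPR Control against WT 2 were called higher and 7 lower, beside 27.2% and 26.3% of all genes. Between deficient and competent lines 9 were called higher and 2 lower, beside 32.9% and 33.0%. PKP3, which encodes the desmosomal plakophilin 3, averaged 993 in WT, 2167 in CRISPR Control, 408 in TIMP1 KO 1 and 705 in TIMP1 KO 2, and was lower in the deficient lines as IFITM2 was. NLRP6, an innate immune sensor, averaged 12.9 in WT, 40.6 in TIMP1 KO 1 and 33.0 in TIMP1 KO 2. Around IFITM10, 6 of 30 genes could be tested. Among them were TNNT3, a troponin gene, at 12.3, 33.5, 1.32 and 3.44, and LSP1, a leukocyte actin-binding gene, at 14.3, 56.1, 5.93 and 12.6. CTSD, the protease cathepsin D, was at 7533, 5349, 10463 and 12524. TNNT3 averaged under 10 over the other lines and reached the minimum only through CRISPR Control, so no call is read from it.

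**Figure D4:**
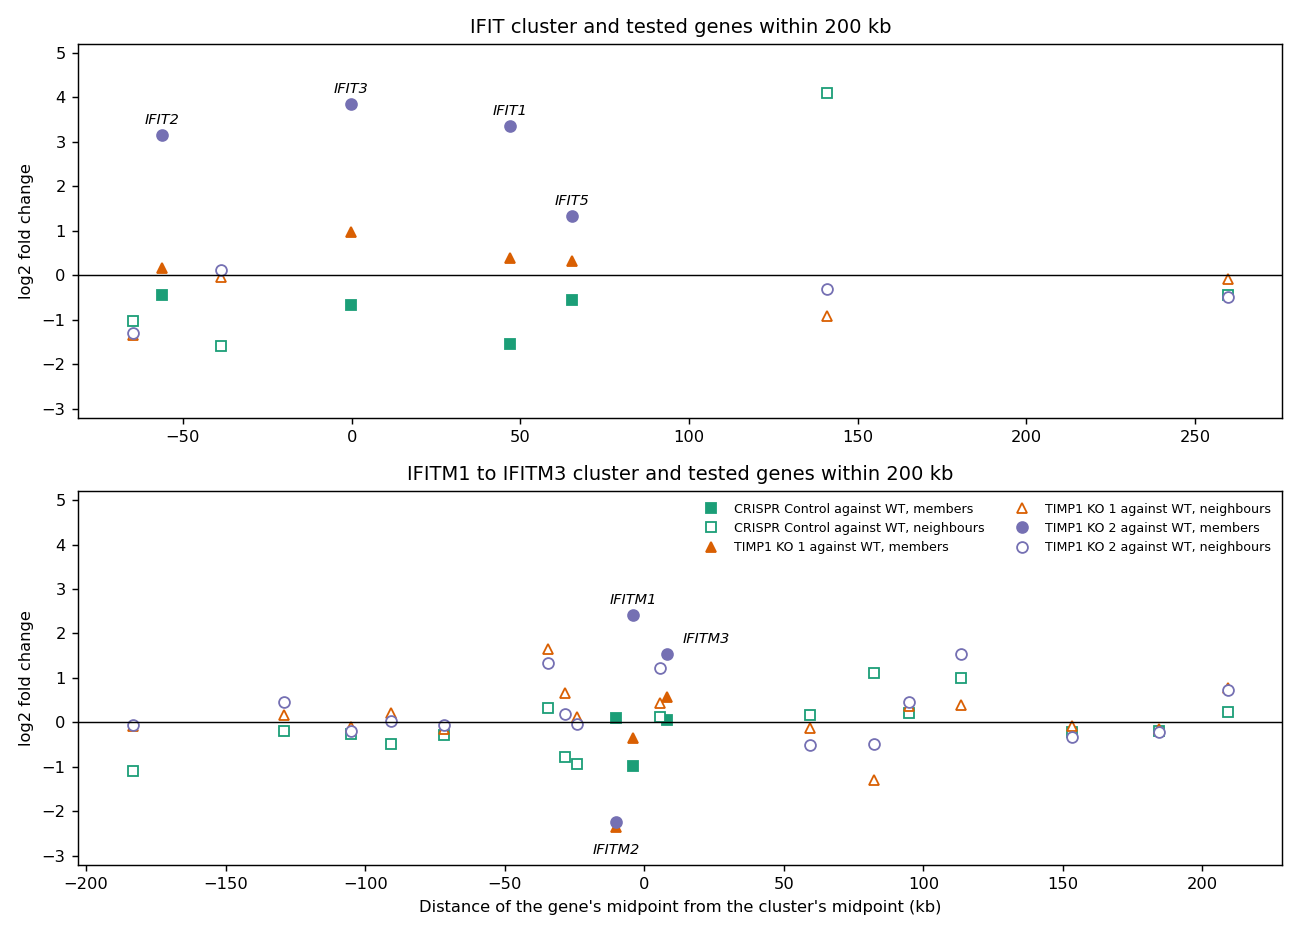
Log2 fold change against WT of members (filled) and tested neighbours within 200 kb (open) by distance from the midpoint of the IFIT cluster (top) and of IFITM1 to IFITM3 (bottom), for CRISPR Control, TIMP1 KO 1 and TIMP1 KO 2. The 4 IFIT members lie at 1.33 to 3.85 in TIMP1 KO 2 while their neighbours there lie at 0.13 or below, and IFITM2 lies at -2.24 beside IFITM1 at 2.42.

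The other genes of the pathway give the setting of these values. Of 21 interferon genes 3 passed the minimum, the type III interferons IFNL1, IFNL2 and IFNL3. IFNL1 averaged 0.75 in WT, 3.03 in CRISPR Control, 9.42 in TIMP1 KO 1 and 138 in TIMP1 KO 2. All 3 reached the minimum only through TIMP1 KO 2, so their values there are given as levels and no call is read from them. IFNL2 and IFNL3 are near-identical copies whose reads cannot be separated with certainty. Each averaged at least 88.0 in TIMP1 KO 2 and at most 3.66 in any other line. IFNB1, the type I interferon of most cell types, had 0 reads in WT and CRISPR Control, averaged 0.29 in TIMP1 KO 1 and reached 20 reads in a TIMP1 KO 2 library. IFNG had 0 reads in all 12 libraries, and none of the 13 IFNA genes exceeded 1 read in a library.

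Against WT, 18.0% of all genes were called higher and 17.5% lower in TIMP1 KO 1, and 27.1% and 27.9% in TIMP1 KO 2. In CRISPR Control the shares were 27.2% and 26.3%. These shares are the background for the list counts that follow. Of 9 receptor and kinase genes 1 was called higher and 0 lower in TIMP1 KO 1 against WT, and 3 higher and 1 lower in TIMP1 KO 2. In CRISPR Control 3 were higher and 5 lower. The higher ones were IFNLR1, by 0.60 (limma adjusted p = 0.00465), IFNGR1, by 0.33 (limma adjusted p = 0.000949), and JAK1, by 0.18 (limma adjusted p = 0.0376). The lower ones were IFNAR1 and IFNAR2, the type I interferon receptor chains, IFNGR2, TYK2 and JAK2. IFNGR2 fell by 1.28 (limma adjusted p = 7.89e-11), TYK2 by 0.68 (limma adjusted p = 1.45e-06) and IFNAR2 by 0.73 (limma adjusted p = 0.00668) there. Of the 7 transcription factors, 5 were called higher in TIMP1 KO 1 and 6 in TIMP1 KO 2, with none lower. IRF9 averaged 25.8 in WT, 14.6 in CRISPR Control, 59.3 in TIMP1 KO 1 and 125 in TIMP1 KO 2, and STAT2 1104, 674, 1685 and 2705. Both therefore took the order of lines seen for IFIT1. IRF1 was instead higher in CRISPR Control than in WT (log2 fold change 0.52, limma adjusted p = 0.000332). The 6 feedback inhibitors moved either way, with 2 higher and 1 lower in TIMP1 KO 1 and 2 higher and 2 lower in TIMP1 KO 2, and USP18, which blocks the type I receptor, averaged 112, 238, 359 and 1619.

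Beside these, 31 of 32 other interferon-stimulated genes could be tested. Against WT, 27 were called higher and 1 lower in TIMP1 KO 1 and 31 higher and 0 lower in TIMP1 KO 2, with median log2 fold changes of 1.78 and 4.73 where the median of all genes was 0.00 and -0.01. The list was made with results of these libraries known and is no independent evidence of its direction. In addition 6 of the 31, RSAD2, IFI27, IFI44, EPSTI1, XAF1 and SAMD9L, averaged under 10 in the other lines and reached the minimum only through TIMP1 KO 2, which fixes their direction there. Of the remaining 25, 23 were called higher and 1 lower in TIMP1 KO 1 and 25 higher and 0 lower in TIMP1 KO 2, with medians of 1.78 and 4.35. The medians of the 7 members were 0.32 and 2.42. In CRISPR Control 15 of the 31 were higher and 5 lower, with a median of 0.38, while the members had a median of -0.56 and 0 higher and 5 lower. OAS2, MX1 and IFI6, which had the largest differences between deficient and competent lines in the list, averaged 15.1, 54.6 and 131 in WT and 5153, 10129 and 20683 in TIMP1 KO 2. In CRISPR Control MX1 and IFI6 were higher than in WT by 0.55 (limma adjusted p = 0.00762) and 0.56 (limma adjusted p = 0.00272), opposite in sign to the IFIT genes, and OAS2 was not called.

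**Figure D5:**
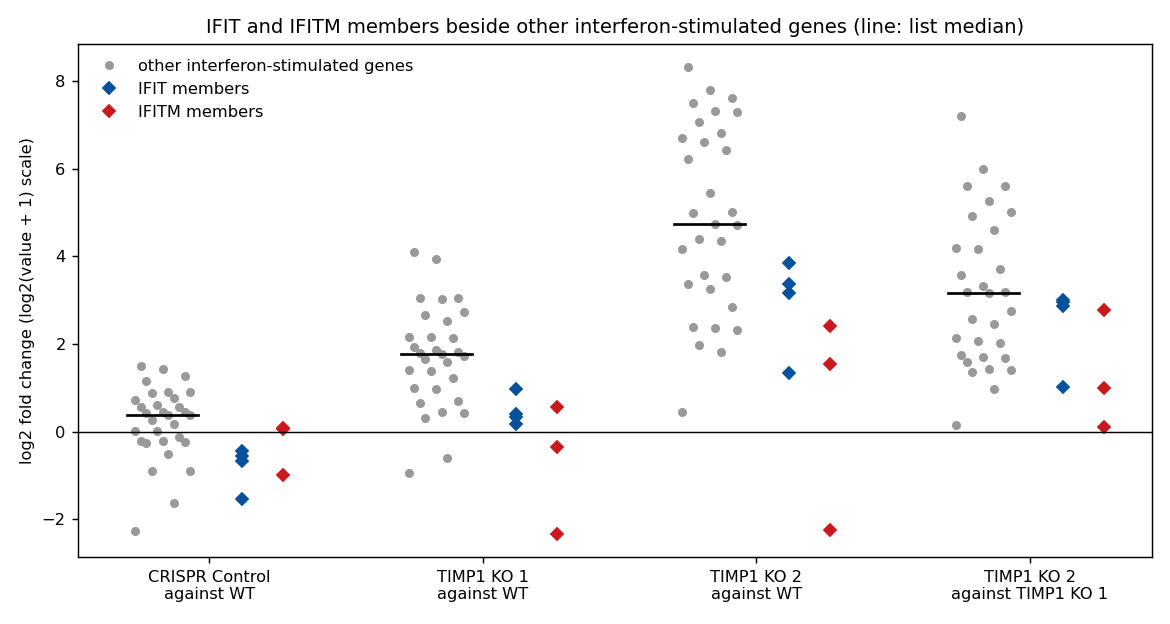
Log2 fold changes of IFIT members (blue), IFITM members (red) and 31 other interferon-stimulated genes (grey, with their median as a line) in 4 comparisons. In CRISPR Control against WT the 4 IFIT members lie between -1.54 and -0.45 and the list median at 0.38, and in TIMP1 KO 2 against WT the members lie at or below 3.85 and the list median at 4.73.

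Genes whose products work with IFIT or IFITM proteins were followed as a further list. Of 8 IFIT partners and cofactors, 3 were called higher and 1 lower in TIMP1 KO 1 against WT, 4 higher and 2 lower in TIMP1 KO 2 and 2 higher and 1 lower in CRISPR Control. Over all genes, 18.0% were called higher and 17.5% lower in TIMP1 KO 1, and 27.1% and 27.9% in TIMP1 KO 2. The shares in CRISPR Control were 27.2% and 26.3%. STING1, a DNA-sensing adaptor, averaged 55.1 in WT, 61.6 in CRISPR Control, 136 in TIMP1 KO 1 and 208 in TIMP1 KO 2, whereas CMTR1, which adds the cap ribose methylation that RNA bound by IFIT1 lacks, averaged 2631, 2457, 2763 and 3243. Of the 6 testable IFITM partners, 0 were called in TIMP1 KO 1, 1 was higher and 2 lower in TIMP1 KO 2, and 1 was higher in CRISPR Control. ZDHHC20, which palmitoylates IFITM3, averaged between 1791 and 2019 in the 4 lines, and VCP, which extracts IFITM3 for degradation, between 22487 and 28631.

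The genes most like each member were sought by Pearson's r of log2(normalised count + 1) over the 12 libraries among 11635 genes with a mean of at least 100. The libraries fall into 4 lines, so r here mostly describes line means and carries no test. SAMHD1, a nucleotide hydrolase that restricts retroviruses, was nearest to IFIT1 with r = 0.996, and OAS3, which makes the activator of RNase L, was nearest to IFIT3 with r = 0.994. LGR4 stood nearest to IFIT2 (r = 0.988), ANKRD1 to IFIT5 (r = 0.994) and OASL to IFITM1 (r = 0.965). IFITM3 was most like BCL6 (r = 0.993), ANGPTL4 and ISG15. IFITM2 was most like COL26A1 (r = 0.993), KANK4 and BCS1L, none of them in the interferon lists. COL26A1 averaged 1167 in WT, 1606 in CRISPR Control, 28.4 in TIMP1 KO 1 and 27.6 in TIMP1 KO 2, and KANK4 306, 452, 0 and 0.67, so these genes shared the low level of IFITM2 in both knockout lines.

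Outside the chosen 8, 16 further rows belonged to these families by name, 7 of them by the symbol in the table and 9 by the reference annotation alone. Among the 16, 7 had 0 reads in every library, and the highest value in any library was 7.12, in IFITM5, a bone-restricted member. IFIT1B did not exceed 4 reads in a library.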

How the data were processed

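Total RNA of 4 MIA PaCa-2 lines was sequenced in 12 libraries. According to the study's methods and the submitters' processing notes, reads were trimmed with Cutadapt, mapped to GRCh38 with STAR and counted with featureCounts, and the deposited values are a signal, counts divided by a DESeq2 size factor. The strand setting and annotation release are not given in the sources used here. Whole reads were recovered for 100% of positive values (tolerance 0.01) and gave the depth, with intervals and floors of 3 reads covering counting error only. A blank line (1) and 4 columns of line means were not used.

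Groups came from sample titles. limma 3.58.1 (R 4.3.3) with a trend was fitted to log2(normalised count + 1) of 15987 genes with a mean of at least 10, with 4 line means and no covariate. Tests were two-sided, adjusted by Benjamini-Hochberg over all these genes (threshold 0.05). Fold changes on this scale understate low genes. The fit was tested on simulated data, and no result here rests on that test. p-values set the difference of line means against the spread between the 3 labelled replicates, pooled per gene over the 4 lines. They do not cover the spread between independently derived lines. The members, gene lists and tests were chosen with earlier results of these data known. Named were members, IFIT1B, IFITM5, TIMP1, genes of lists of at most 10, the 3 genes of longer lists and of each locus with the largest called difference between deficient and competent lines, and the 3 genes most similar to each member. Some genes of these lists are counted but not reported here by name. IFNB1, IFNG and the IFNA genes fall outside this rule and were named after their values were seen.
Alternatives were edgeR 4.0.16 and DESeq2 1.42.0 on recovered reads, pseudocounts of 0.5 and 10, a minimum of 50 or none, equal totals, quantile normalisation, a replicate block and leaving out each library.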

Additional observations from a re-analysis of the deposited data

Results flagged for a closer look

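The knockout lines stood apart in 6 of the 7 tested members, those past the threshold of the limma contrast of TIMP1 KO 2 against TIMP1 KO 1. The members were chosen with these values known, so the differences are a description and that threshold lends them no support. TIMP1 KO 2 was higher by 2.96 on the log2 scale for IFIT1, 2.99 for IFIT2, 2.87 for IFIT3 and 1.01 for IFIT5. It was higher by 2.78 for IFITM1 and 0.98 for IFITM3. Of all genes tested, 18.1% were called higher and 20.1% lower in this comparison. The knockout lines are 1 line each, so a difference between guides, clones or cultures cannot be told apart here.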

How the results depend on the processing

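Of 1029 member fold changes under alternative settings, 1020 kept their direction and side of the threshold, 6 lost the call and 3 turned sign without a call on either side. The 3 were IFITM2 in TIMP1 KO 2 against TIMP1 KO 1 after quantile normalisation (-0.14 in place of 0.10) and IFITM2 and IFITM3 in CRISPR Control against WT without CRISPR Control replicate 3 (-0.03 and -0.04). The 6 were IFIT5 in TIMP1 KO 1 against WT and IFITM1 in TIMP1 KO 1 against CRISPR Control, the latter with the fewest reads of the tested members. The cause was not tested. With no minimum on the mean, IFITM10 entered the test and 6 members were called lower in CRISPR Control against WT in place of 5. Scaling to equal totals moved the median of all genes by up to 0.12 on the log2 scale, in TIMP1 KO 2 against CRISPR Control.

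Replicate numbers did not pair the samples: deviations of same-numbered libraries correlated at -0.13 to 0.16, and those of other numbers at -0.19 to 0.13. With a replicate block the members called numbered 5 in CRISPR Control against WT, as without it, and the genes called 8490 in place of 8541. Depth limits IFITM10, with 2 to 36 reads a line.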
